A study of Mus musculus with 10 samples.

Results

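The chemokine genes followed here in mouse kidney were 10 in number: Ccl2, Ccl5, Ccl6, Ccl8 and Ccl9 of the CC family, Cxcl1, Cxcl10, Cxcl12 and Cxcl16 of the CXC family, and Cx3cl1. They were chosen by name, with earlier results of these data known, among the 18193 genes that the arrays named. Counts of members set beside shares of all genes are therefore descriptions and no independent test of the list. For each gene the probe set with the highest average over the arrays was read. The samples were renal cortex from FVB/N mice, 20 weeks old, whose kidney mass had been reduced in 2 steps, ablation of 2/3 of a kidney and then uninephrectomy. Losartan, a blocker of the angiotensin II type 1 receptor, was given to 5 mice at 500 mg/l. The other 5 mice received aliskiren, an inhibitor of renin, at 50 mg/kg per day. Treatment with either drug lasted 6 weeks, and its first day lay 6 weeks past the ablation and 4 weeks past the uninephrectomy. Mice without drug or without surgery were not analysed here, so the values speak neither to the effect of a drug alone nor to that of the ablation.

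Most of the chemokine genes varied widely between individual mice. Ccl8, Ccl6 and Ccl9 spanned a 15.1-fold to 18.0-fold range over the 10 mice. In the test between losartan and aliskiren 0 of the 10 genes passed, as did 0% of all genes tested. For 9 of the genes losartan mouse 3 was the highest mouse and aliskiren mouse 1 was among the top 3, and Cxcl12 ran the opposite way. The order of other mice varied more. Losartan mouse 1 was among the top 3 for 2 of the 9 genes and among the lowest 2 for 2. Expression of 8 genes was positively correlated with Havcr1, a gene of injured tubules, over the 10 mice, against 8.63% of all genes tested, and that of Cxcl12 was negatively correlated, against 2.03%. With Csf1r, the macrophage receptor gene, 0 of the 10 and 0% of all genes passed the same threshold, whereas with the mean of 16 macrophage genes 9 of the 10 did, against 14.6%. The calls with Havcr1 were lost when losartan mouse 3 was left out, when 0.0174% of all genes passed, although the coefficients of the 9 genes then lay between 0.647 and 0.942, with -0.802 for Cxcl12.

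Chemokines are small secreted or membrane-bound proteins that bind G protein-coupled receptors on leukocytes and guide them into tissue. In injured kidneys, tubular cells, endothelium and macrophages are known sources of the inflammatory members, many of which are induced through NF-kB or interferon signalling. Cxcl12 is a homeostatic member, made by stromal cells, endothelium and podocytes, and acts through Cxcr4 and the scavenging receptor Ackr3. Havcr1 encodes kidney injury molecule 1, which proximal tubules make after damage. Csf1r encodes the receptor for colony-stimulating factor 1, on which macrophages depend.

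Promoters are shown for the members whose start region holds a match to the NF-kB decamer, and for Cxcl12, which ran against the others and holds none. Each stretch runs from 250 bases before to 50 bases after the RefSeq start on GRCm38.p6, in the direction of the gene, and is credited to RefSeq. Capitals mark matches to the decamer on either strand and, in Cxcl10, also a match to the core of the interferon-stimulated response element, spelled GAAANNGAAA.
Cxcl10, chr5:92348840-92349139, minus strand: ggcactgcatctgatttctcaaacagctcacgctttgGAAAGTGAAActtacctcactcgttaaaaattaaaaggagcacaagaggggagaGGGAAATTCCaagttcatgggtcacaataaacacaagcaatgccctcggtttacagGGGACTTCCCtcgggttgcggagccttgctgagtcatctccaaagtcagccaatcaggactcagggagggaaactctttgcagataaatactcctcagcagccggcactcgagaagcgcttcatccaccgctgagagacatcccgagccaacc
Cxcl1, chr5:90890995-90891294, plus strand: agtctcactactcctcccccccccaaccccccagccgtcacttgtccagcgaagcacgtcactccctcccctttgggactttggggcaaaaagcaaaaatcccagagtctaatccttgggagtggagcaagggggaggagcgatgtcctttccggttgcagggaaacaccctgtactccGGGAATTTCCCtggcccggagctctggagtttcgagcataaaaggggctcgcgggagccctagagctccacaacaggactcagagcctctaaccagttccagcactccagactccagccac
Ccl9, chr11:83578587-83578886, minus strand: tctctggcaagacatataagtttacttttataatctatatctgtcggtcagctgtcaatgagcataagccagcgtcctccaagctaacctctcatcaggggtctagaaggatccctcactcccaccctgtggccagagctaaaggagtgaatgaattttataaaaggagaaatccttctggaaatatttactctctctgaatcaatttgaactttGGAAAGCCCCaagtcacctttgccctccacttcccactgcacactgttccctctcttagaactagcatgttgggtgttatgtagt
Cxcl12, chr6:117168285-117168584, plus strand: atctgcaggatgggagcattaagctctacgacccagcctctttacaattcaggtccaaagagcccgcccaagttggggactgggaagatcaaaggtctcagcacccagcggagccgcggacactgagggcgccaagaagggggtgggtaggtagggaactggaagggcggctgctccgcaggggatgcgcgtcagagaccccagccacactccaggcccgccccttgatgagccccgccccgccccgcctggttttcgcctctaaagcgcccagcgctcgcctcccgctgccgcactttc

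The RefSeq promoter table held 7 of the 10 genes, and Ccl2, Ccl5 and Cxcl16 were not among them. The decamer was found in 3 of these 7, against 4.51% of all 32851 promoters in the table. Cxcl10 carried 2 separate decamers, at -159 to -150 and -103 to -94 from the start, an arrangement found in 0.167% of promoters. Its interferon element core lay at -213 to -204, and 3.44% of promoters held such a core. In Cxcl1 matches on both strands overlapped between -71 and -61 and were counted as 1, and in Ccl9 the match lay on the opposite strand at -35 to -26. The promoters of Ccl6, Ccl8, Cxcl12 and Cx3cl1 held neither element within this window. A match describes letters in the sequence and does not show that a factor was bound in these mice.

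All values below are RMA log2 expression values, so a step of 1 is a doubling, and a level of one gene was not set against that of another, since probes differ in how brightly they bind. The values ran from 2.096 to 15.062 over all probe sets, and array medians from 5.52 to 5.56. The number of arrays, 5 per drug, limits the precision. The mice are separate animals per the labels, and errors are SD over mice. Genes entered the tests, 11486 in all, if their mean was at least 5.53, which is the middle value over the non-control probe sets. All 10 chemokines passed this filter, also without losartan mouse 3. Proximal tubule markers, the defining genes of cortex, had list means between 12.13 and 12.63 in every mouse. Among leukocyte markers, 16 of 18 macrophage, 2 of 8 measured T cell, 2 of 5 measured B cell and 0 of 7 measured neutrophil genes passed the filter. In whole tissue a change in the number of cells of a type and a change in RNA per cell cannot be told apart.

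**Figure D1:**
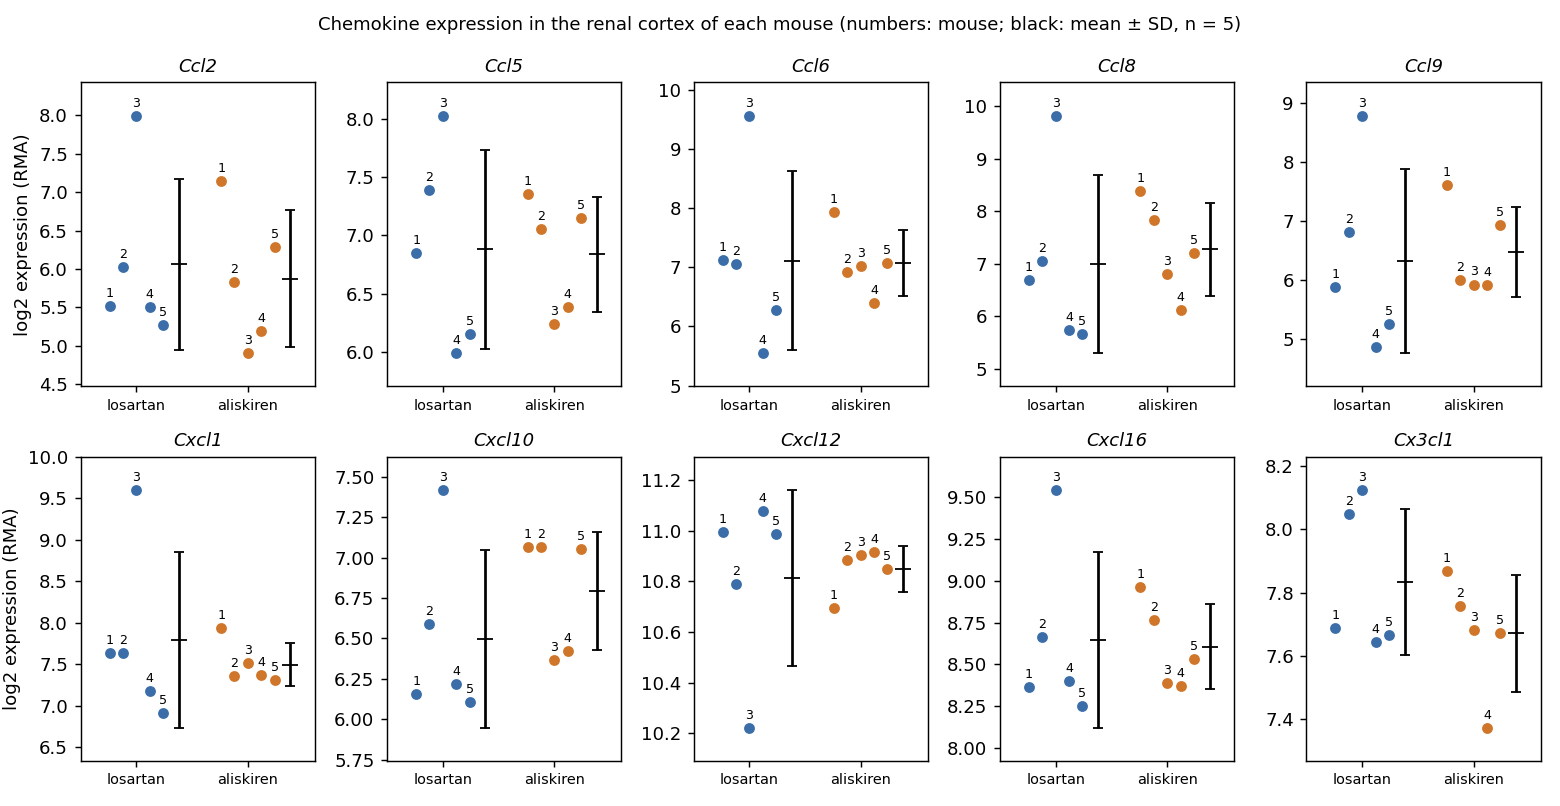
Log2 expression (y axis) of the 10 chemokine genes in each mouse, by drug (x axis). Numbers name the mouse within its drug group, and the black bar is the mean with SD (n = 5). Losartan mouse 3 is the highest mouse for 9 genes and the lowest for Cxcl12, and the drug groups overlap for every gene.

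Ccl2 and Ccl8 belong to the monocyte chemoattractant group of CC chemokines, and Ccl2 acts through Ccr2. The log2 level of Ccl2 (probe set 1420380_at) was 5.52, 6.02, 7.99, 5.50 and 5.27 in losartan mice 1 to 5 and 7.14, 5.84, 4.90, 5.19 and 6.29 in aliskiren mice 1 to 5. Losartan mouse 3 and aliskiren mouse 1 thus stood above the rest of their groups, and the lowest mouse was aliskiren mouse 3. Ccl8 (1419684_at) had log2 levels of 6.69, 7.05, 9.82, 5.73 and 5.65 with losartan and 8.38, 7.84, 6.81, 6.12 and 7.20 with aliskiren, in the same order of mice. The same pair of mice led, and losartan mice 4 and 5 were lowest. The residual SD of Ccl8 within the drug groups was larger than that of 99.8% of all genes tested.

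Ccl6 and Ccl9 are neighbouring genes on chromosome 11 that encode rodent CC chemokines made by myeloid cells, and both act through Ccr1. In losartan mice 1 to 5 the log2 level of Ccl6 (1417266_at) was 7.12, 7.05, 9.56, 5.55 and 6.28, and in aliskiren mice 1 to 5 it was 7.93, 6.91, 7.03, 6.40 and 7.08. All 5 aliskiren mice lay inside the span of the losartan mice. Ccl9 (1417936_at) reached log2 levels of 5.88, 6.81, 8.78, 4.87 and 5.24 with losartan and 7.61, 6.00, 5.92, 5.91 and 6.93 with aliskiren. For both genes losartan mouse 4 was the lowest, and a second probe set of each followed the first over the mice, with r = 0.935 for Ccl6 and 0.975 for Ccl9.

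Ccl5, known as RANTES, attracts T cells, monocytes and macrophages. Its log2 level (1418126_at) was 6.85, 7.39, 8.03, 5.99 and 6.15 in losartan mice 1 to 5 and 7.36, 7.05, 6.24, 6.38 and 7.15 in aliskiren mice 1 to 5. Here losartan mouse 2 stood second and just above aliskiren mouse 1, while losartan mice 4 and 5 were again lowest.

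Cxcl1 encodes a neutrophil attractant that binds Cxcr2 and is made by injured tubular and endothelial cells. Its log2 level (1457644_s_at) was 7.64, 7.63, 9.60, 7.18 and 6.91 with losartan and 7.94, 7.35, 7.51, 7.37 and 7.30 with aliskiren. The other 9 mice lay close together, and losartan mouse 3 stood apart from them. The suffix of this probe set marks sets that can match more than 1 transcript. A further set, 1419209_at, spanned 4.62 log2 units over the mice with r = 0.963 to the first, whereas 1441855_x_at spanned 0.28 with r = 0.570.

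Cxcl10 is induced by interferon gamma and type I interferons and attracts T cells through Cxcr3. Log2 levels of Cxcl10 (1418930_at) were 6.16, 6.59, 7.42, 6.22 and 6.10 in losartan mice 1 to 5 and 7.07, 7.06, 6.37, 6.42 and 7.05 in aliskiren mice 1 to 5. Aliskiren mice 1, 2 and 5 formed a group between losartan mouse 3 and all others.

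Cxcl16 and Cx3cl1 encode the chemokines that are made as transmembrane proteins and shed by Adam10 and Adam17. The log2 level of Cxcl16 (1418718_at), the ligand of Cxcr6, was 8.37, 8.66, 9.54, 8.40 and 8.25 with losartan and 8.96, 8.77, 8.39, 8.37 and 8.53 with aliskiren. For Cx3cl1 (1415803_at), also called fractalkine, it was 7.69, 8.05, 8.12, 7.65 and 7.66 with losartan and 7.87, 7.76, 7.68, 7.37 and 7.67 with aliskiren. Cx3cl1 had the smallest range of the members, 0.75 log2 units. Its other 3 probe sets did not follow the one shown, with r between -0.46 and -0.14, so the pattern of Cx3cl1 rests on a single set.

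Cxcl12 was the exception. Its log2 level (1417574_at) was 11.00, 10.79, 10.22, 11.08 and 10.99 in losartan mice 1 to 5 and 10.69, 10.88, 10.90, 10.92 and 10.85 in aliskiren mice 1 to 5. Losartan mouse 3, highest for the other chemokines, was lowest here, and aliskiren mouse 1 was the lowest of its group. Losartan mouse 4 was highest. The whole range was 0.85 log2 units, a 1.81-fold difference, and the other 2 probe sets of Cxcl12 followed the first with r = 0.913 and 0.895.

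Spread over the mice was wide among these genes. The range reached 1 log2 unit or more for 8 of the 10 chemokines, against 14.3% of all genes tested, and the median range was 2.36 log2 units against 0.47. Ccl8 spanned 4.17 log2 units, Ccl6 4.01, Ccl9 3.91, Ccl2 3.09, Cxcl1 2.69 and Ccl5 2.03. Cxcl10 and Cxcl16 spanned 1.31 and 1.29. Because the steepness with which a probe set follows its RNA varies between sets, these ranges describe the probe sets and not the RNA molecules. Losartan mouse 3 had a median deviation of 1.96 log2 units from the gene means over the 9 genes other than Cxcl12, and aliskiren mouse 1 one of 0.50. At the other end stood losartan mouse 5 with -0.71. Aliskiren mouse 1 ranked second for 7 of the 9 genes, and losartan mouse 2 for Ccl5 and Cx3cl1. Over all genes tested the same mice deviated by a median of 0.01, 0.03 and -0.02. RMA equalises the distributions of the arrays and so holds this median near 0 for any mouse. It is therefore no test of whether the deviations are particular to the chemokines.

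The 9 genes also followed each other. Over the 36 pairs without Cxcl12, Pearson's r across the 10 mice had a median of 0.866 and lay between 0.574 and 0.956. The 9 pairs with Cxcl12 lay between -0.947 and -0.740. These coefficients describe values read from the same arrays. Losartan mouse 3 was the highest for the 9 genes and the lowest for Cxcl12, so every coefficient depends in part on this mouse. The pairs were not computed without it or by rank.

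The design compares the 2 drugs, and asks how chemokine expression in the remaining cortex differs between a receptor blocker and a renin inhibitor. With limma, 0 of the 10 chemokine genes differed at a Benjamini-Hochberg adjusted p under 0.05, as did 0% of the 11486 genes tested. At an unadjusted p under 0.05 the count was again 0 of 10, against 4.72% of all genes. For 0 of the 10 genes did the drug groups fail to overlap, against 0.914% of all genes. The estimate was higher with aliskiren for 4 genes and lower for 6, with a median of -0.04 log2 units against -0.01 over all genes. The lowest adjusted p among the members was 0.948.

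Cxcl10, the interferon-induced member, had a log2 level of 6.50 ± 0.55 (SD, n = 5) with losartan and 6.79 ± 0.36 (SD, n = 5) with aliskiren. Its difference, aliskiren minus losartan, was 0.30 (SE 0.26), with a 95% confidence interval of -0.28 to 0.88. Ccl8 stood at 6.99 ± 1.69 and 7.27 ± 0.88, a difference of 0.28 (SE 0.75) with an interval of -1.38 to 1.95. The interval of Ccl8 holds differences of 2-fold in either direction, so one of that size was not excluded by these mice. Ccl2, the monocyte attractant, gave 6.06 ± 1.12 and 5.87 ± 0.89, a difference of -0.19 (SE 0.56) and an interval of -1.44 to 1.06. Narrower intervals were had for Cxcl12, -0.29 to 0.36 around 0.04, and for Cx3cl1, -0.44 to 0.11 around -0.16. In the remaining 5 genes the differences were -0.04 for Ccl5, Ccl6 and Cxcl16, 0.16 for Ccl9 and -0.30 for Cxcl1.

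The signs of 8 of the 10 differences turned when some single mouse was left out, all but those of Cxcl10 and Cx3cl1. Losartan mouse 3 turned 6 of them, aliskiren mice 3 and 4 turned 3 each, losartan mice 4 and 5 turned 2 each, and losartan mouse 2 and aliskiren mouse 1 turned 1 each. Without losartan mouse 3 the estimate was above 0 for 8 of the genes and below 0 for Cxcl12 and Cx3cl1. Ccl8 then had a difference of 0.99 (SE 0.46), Ccl9 of 0.77, Ccl6 of 0.57 and Cxcl10 of 0.53 (SE 0.18). Only Cxcl10 passed an unadjusted threshold of 0.05 there, as did 4.55% of all genes, and its adjusted p in limma was 0.947. No gene passed after adjustment without this mouse either.

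**Figure D2:**
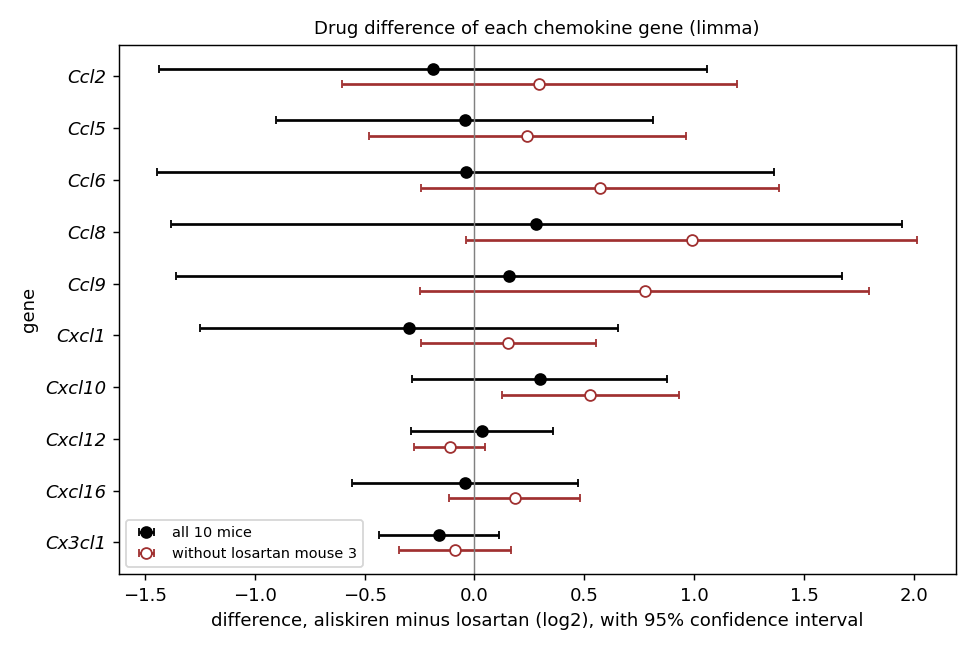
Difference in log2 expression, aliskiren minus losartan (x axis), for each chemokine gene (y axis), with limma's 95% confidence interval. Black points use all 10 mice and open points leave out losartan mouse 3; with all mice every interval includes 0, and without that mouse the interval of Cxcl10 does not.

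The injury gene Havcr1 spanned 5.34 log2 units with the probe set used, and 2.78 with its other set, which followed the first with r = 0.926. Its log2 level was 7.23, 8.69, 10.76, 6.22 and 5.41 in losartan mice 1 to 5 and 9.37, 8.53, 6.08, 6.57 and 7.82 in aliskiren mice 1 to 5. Losartan mouse 3 and aliskiren mouse 1 were again the highest of their groups. The largest gap between neighbouring mice left no separate clusters, so 1 coefficient was computed over the 10 mice. Permutation p-values came from 100000 resamples and were adjusted over the 11485 other genes.

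With Havcr1, 9 of the 10 chemokine genes were correlated at an adjusted p under 0.05, against 10.7% of all genes, and all 10 had an unadjusted p under 0.05, against 29.9%. In the adjusted test 8 genes were positively correlated, against 8.63% of all genes, and Cxcl12 was negatively correlated, against 2.03%. Ccl5 gave r = 0.965 (rho = 0.939, permutation p = 2e-05, adjusted p = 0.0065) and Cxcl16 r = 0.934 (rho = 0.879, permutation p = 2e-05, adjusted p = 0.0065). In the monocyte chemoattractant group, Ccl8 gave r = 0.938 (rho = 0.891, permutation p = 7e-05, adjusted p = 0.00796) and Ccl2 r = 0.915 (rho = 0.903, permutation p = 0.00012, adjusted p = 0.00899). Ccl9, Cxcl10, Ccl6 and Cxcl1 had r = 0.906, 0.880, 0.850 and 0.809, with rho = 0.855, 0.879, 0.770 and 0.721, and permutation p = 0.0004, 0.00121, 0.00116 and 0.00122. Their adjusted p lay between 0.0137 and 0.0232. Cxcl12 gave r = -0.853 (rho = -0.830, permutation p = 0.00052, adjusted p = 0.0157). Cx3cl1 did not pass, with r = 0.785 (rho = 0.818, permutation p = 0.0069, adjusted p = 0.0573).

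The slopes differed in size more than the coefficients. Per log2 unit of Havcr1, Ccl8 was higher by 0.72 (SE 0.09), Ccl9 by 0.63, Ccl6 by 0.54, Ccl2 by 0.52 (SE 0.08), Ccl5 by 0.38 (SE 0.04), Cxcl1 by 0.36, Cxcl10 by 0.24 and Cxcl16 by 0.22. For Cxcl12 the slope was -0.12 (SE 0.03). A steep slope with a lower coefficient, as for Ccl6, means more scatter around the line.

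Without losartan mouse 3 and losartan mouse 5, the mice farthest from the Havcr1 median, r was 0.939 for Ccl5, 0.919 for Cxcl16, 0.871 for Ccl2 and 0.860 for Ccl8. It was -0.802 for Cxcl12, 0.706 for Cx3cl1 and 0.600 for Cxcl1, which was the lowest among the positive ones. Among the 10 genes, 9 still had an unadjusted permutation p under 0.05, against 12.3% of all genes, and 0 passed after adjustment, against 0%. Leaving out losartan mouse 3 alone gave 9 of 10 at an unadjusted p under 0.05, against 13.7% of all genes, and 0 of 10 after adjustment, against 0.0174%. The adjusted calls therefore did not hold without that mouse. Leaving out aliskiren mouse 1 left Ccl5, Ccl8 and Cxcl16 past the threshold, when 206 of all 11485 genes passed. Leaving out any of the other 8 mice left 8 to 10 of the chemokines, when 648 to 1318 of all genes passed. By rank correlation over all 10 mice, only Ccl5 passed, with an adjusted p of 0.0409, against 1.38% of all genes.

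**Figure D3:**
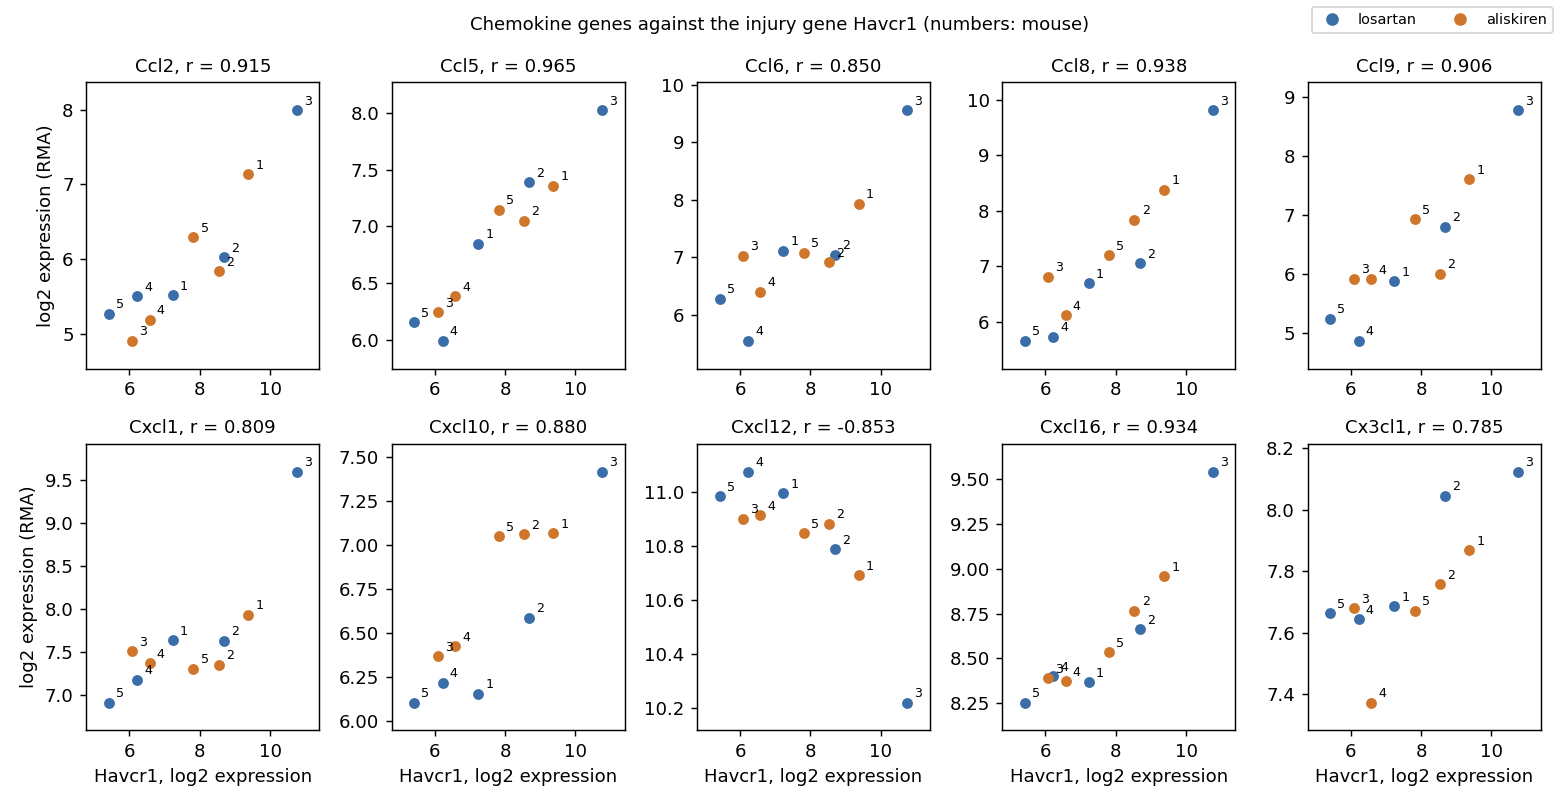
Log2 expression of each chemokine gene (y axes) against Havcr1 (x axes) in the 10 mice, with Pearson's r. Numbers name the mouse within its drug group. Points of both drugs lie along common trends, which are rising for 9 genes and falling for Cxcl12, and losartan mouse 3 is at the end of each.

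Csf1r gave another picture. Its log2 level was 10.38, 10.71, 11.18, 10.68 and 9.58 in losartan mice 1 to 5 and 10.98, 10.16, 10.16, 11.25 and 10.71 in aliskiren mice 1 to 5. Aliskiren mouse 4 was highest, a mouse that was not among the top 4 for any of the 9 chemokines, and losartan mouse 5 lowest. With Csf1r, 0 of the 10 genes were correlated at an adjusted p under 0.05 and 0 at an unadjusted p under 0.05, against 0% and 9.16% of all genes. The coefficients were positive for 9 genes, from r = 0.158 for Cx3cl1 (rho = 0.139, permutation p = 0.665) to r = 0.586 for Ccl9 (rho = 0.539, permutation p = 0.0747). Cxcl12 gave r = -0.518 (rho = -0.491, permutation p = 0.128), and the adjusted p of the 10 genes lay between 0.562 and 0.869. Without losartan mouse 5 and aliskiren mouse 4, the mice farthest from the Csf1r median, r lay between 0.533 and 0.871 for the 9 genes and was -0.701 for Cxcl12. Of the 10 genes, 5 then had an unadjusted permutation p under 0.05, against 12.9% of all genes, and 0 passed after adjustment, as did 0% of all genes.

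In these arrays Csf1r ordered the mice differently from the mean of the other macrophage genes. Those genes were not uniform, since Fcgr1, which is part of that mean, had r = -0.518 with Havcr1 and -0.239 with Csf1r. The mean of the 15 other macrophage genes tested, among them Cd68, Cd14, Lyz2 and the complement genes C1qa, C1qb and C1qc, was 7.21, 7.79, 9.09, 5.98 and 6.58 in losartan mice 1 to 5 and 8.40, 7.31, 6.88, 6.95 and 7.48 in aliskiren mice 1 to 5. Its order of mice placed losartan mouse 3 first and aliskiren mouse 4 seventh, where Csf1r placed aliskiren mouse 4 first. Csf1r and this mean gave r = 0.512 (rho = 0.576, permutation p = 0.130 for r and 0.0892 for rho). Havcr1 and the same mean gave r = 0.929 (rho = 0.952, permutation p = 5e-05 for r and 0.00015 for rho), and r = 0.878 without the 2 mice farthest from the Havcr1 median. Csf1r with Havcr1 gave r = 0.569 (rho = 0.612, permutation p = 0.087 and 0.0676). Adjusted over these 3 relations, the permutation p of r was 0.130, 0.00015 and 0.130. The genes most like Csf1r over the mice were Cdh2, which encodes N-cadherin of tubular cells, with r = 0.954, Kcnk1, a potassium channel gene, with 0.947, and Nfix with 0.909. The other 2 probe sets of Csf1r followed the first with r = 0.981 and 0.893.

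**Figure D4:**
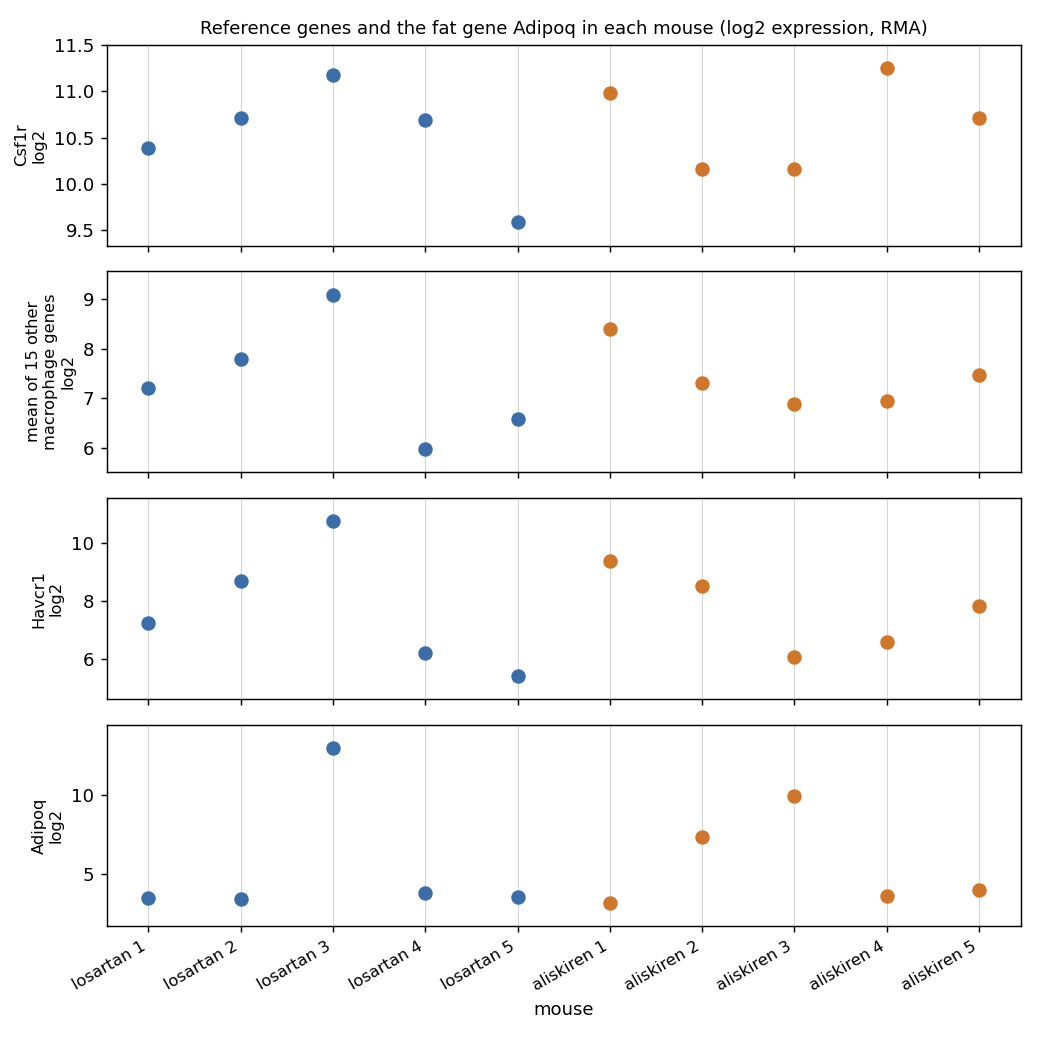
Log2 expression (y axes) of Csf1r, the mean of 15 other macrophage genes, Havcr1 and the fat gene Adipoq in each mouse (x axis), losartan in blue and aliskiren in orange. The macrophage mean and Havcr1 are highest in losartan mouse 3 and aliskiren mouse 1, Csf1r is highest in aliskiren mouse 4, and Adipoq is high in losartan mouse 3 and aliskiren mice 2 and 3.

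With the mean of all 16 macrophage genes tested as the reference, 9 of the 10 chemokines were correlated at an adjusted p under 0.05, against 14.6% of all genes. Of these, 8 were positive, against 10.6% of all genes, and Cxcl12 was negative, against 4.09%. Ccl9 gave r = 0.981 (adjusted p = 0.00179, permutation test), Ccl5 r = 0.952 (adjusted p = 0.00179, permutation test) and Cxcl12 r = -0.916 (adjusted p = 0.00364, permutation test). Cx3cl1 gave r = 0.740 and an adjusted p of 0.0793 in the permutation test. Without losartan mouse 3, Ccl5 and Ccl9 passed, with r = 0.921 and 0.966 and adjusted p = 0.0158 and 0.0248 in the exact permutation test over the orders of the 9 mice, against 0.924% of all genes. Cxcl12 had r = -0.936 and an adjusted p of 0.0517 there, by the same exact test. With the mean of 11 tubular injury genes, Havcr1 among them, all 10 passed in the permutation test over 10 mice, 9 positively and Cxcl12 negatively, against 16.1% of all genes, or 11.9% positive and 4.19% negative. Since Havcr1 and the macrophage mean ran together, their parts in the chemokine values cannot be told apart by these 10 mice.

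**Figure D5:**
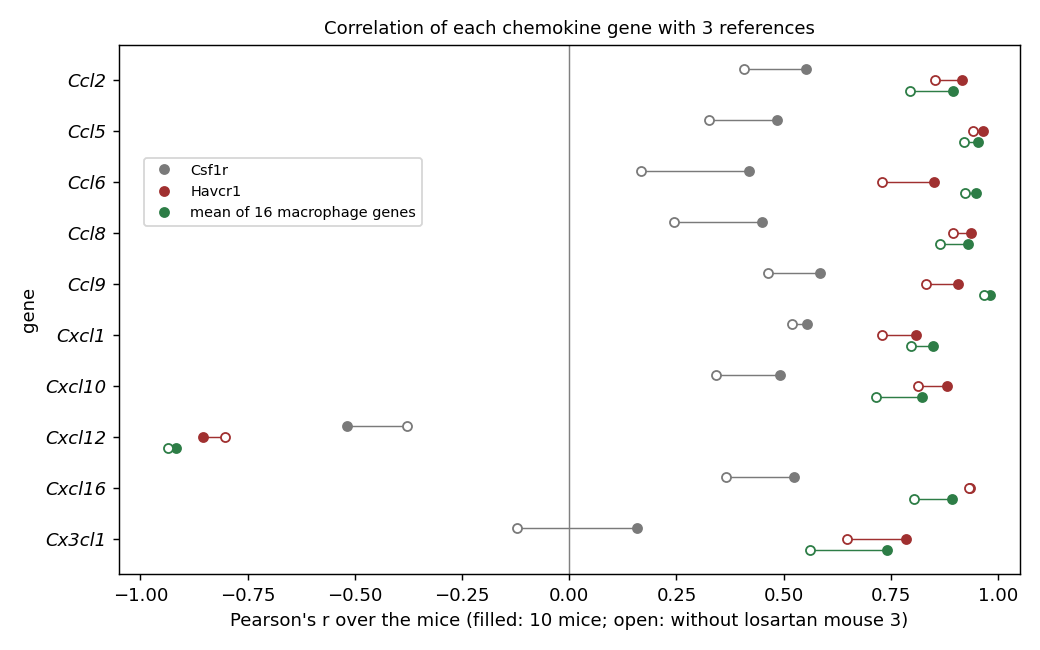
Pearson's r over the mice (x axis) of each chemokine gene (y axis) with Csf1r, Havcr1 and the mean of 16 macrophage genes. Filled points use 10 mice, and open points leave out losartan mouse 3. Coefficients with Havcr1 and the macrophage mean lie far from 0 with and without that mouse, and those with Csf1r lie nearer to 0.

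Some markers of other cell types moved with the same mice. Among the fibroblast and pericyte genes, 6 of 7 tested were positively correlated with Havcr1 at an adjusted p under 0.05, against 8.63% of all genes, and their mean was 7.15 to 10.02 with losartan, highest in losartan mouse 3, and 7.46 to 8.93 with aliskiren. Of the macrophage genes 14 of 16 were, and of the endothelial genes 1 of 8. None of the 2 T cell, 2 B cell, 4 perirenal fat, 9 proximal tubule, 6 loop and distal nephron and 3 podocyte genes tested was called with Havcr1 in either direction. Fat genes were also highest in losartan mouse 3, the mouse that was highest for the 9 chemokines other than Cxcl12. The mean of the 4 tested perirenal fat genes was 12.01 in losartan mouse 3 and at most 9.16 in the other losartan mice, with 8.90 to 10.24 among aliskiren mice. Adipoq, the adiponectin gene of fat cells, was below the level filter on average but stood at 12.96 in losartan mouse 3, 9.90 in aliskiren mouse 3 and 7.35 in aliskiren mouse 2, against 3.17 to 3.96 in the other 7 mice. Aliskiren mouse 1, ranked second for 7 chemokines, was among these 7 mice. Their Adipoq values all lay below the filter level of 5.53, so their order among themselves was not read. Without the 3 mice of high Adipoq, r with Havcr1 lay between 0.676 and 0.949 for the 9 genes and was -0.879 for Cxcl12. There 9 of 10 had an unadjusted permutation p under 0.05, against 13.2% of all genes, and 0 of 10 passed after adjustment, as did 0% of all genes. The orders of the 7 remaining mice are fewer than the 100000 resamples for 10 mice. The smallest possible p is thus larger, and this 0 is not comparable with the count over 10 mice. Beyond these values, the part of fat, fibroblasts or macrophages in the chemokine pattern was not tested.

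The genes whose values over the mice were most like each chemokine are given as a description. Ccl5 ran closest to the myeloid genes Cd68 and Cd14 and to the leukocyte integrin gene Itgb2, with r = 0.977, 0.975 and 0.967. The nearest genes to Ccl9 were Clec7a, the beta-glucan receptor of myeloid cells, Laptm5 and C1qa, with r = 0.988, 0.986 and 0.983. Ccl6 was nearest to Phlda1, Alox5ap and the mannose receptor gene Mrc1, and Ccl8 to Anxa3, P2ry6 and the scavenger receptor gene Stab1. For Ccl2 the list read Tmem176b, the macrophage elastase gene Mmp12 and Nfkbie, an inhibitor of NF-kB, with r = 0.975, 0.973 and 0.969.

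Other members had neighbours of different kinds. Cxcl1 was nearest to the tight junction gene Cldn4, Cavin1 and Cyrib, with r = 0.990, 0.988 and 0.982. Cx3cl1 was nearest to the proliferation gene Mki67, Nod1 and the mitotic checkpoint gene Mad2l1, with r = 0.983, 0.972 and 0.954. Cxcl16 was nearest to Plac8, the complement factor I gene Cfi and Ecrg4. Cxcl12 ran with Dgkd and the mitochondrial enzyme genes Fahd1 and D2hgdh, with r = 0.975, 0.974 and 0.974. Cxcl10 had the loosest neighbours, Get1, Nipsnap3b and Dpysl3, with r = 0.943, 0.918 and 0.906.

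Of the receptors that these chemokines bind, few were measured above the filter. Among 21 receptor genes measured, Ccr2, Cx3cr1, Ackr3 and Ackr4 were tested, and none differed between the drugs. Cx3cr1, the receptor of fractalkine, was positively correlated with Havcr1, with r = 0.765 (adjusted p = 0.0496, permutation test). Its r was 0.593 without losartan mouse 3. Ccr2, the receptor of Ccl2, had r = -0.754 and an adjusted p of 0.0626 in the permutation test, and did not pass. Ackr3, which scavenges Cxcl12, had r = 0.391. Ccr1, Cxcr2, Cxcr3, Cxcr4, Cxcr6 and Ackr1 lay below the filter.

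The other chemokine genes that passed the filter were less uniform. Of 25 measured, 12 were tested, and 0 differed between the drugs. Positively correlated with Havcr1 were 3 of the 12, against 8.63% of all genes. These were Cxcl11, another ligand of Cxcr3, with r = 0.895, Pf4 with 0.879 and Cxcl14 with 0.823. Their adjusted p in the permutation test were 0.0163, 0.0196 and 0.0427. The median r of the 12 was 0.57, against 0.13 over all genes tested. Ccl28, a mucosal chemokine of epithelium, spanned 2.83 log2 units but had r = -0.19 with Havcr1, and Ccl27a had r = -0.32. For the B cell attractant Cxcl13, r was 0.770 and the adjusted p 0.0510 in the permutation test. Chemokine genes below the filter were not tested. Of these, Ccl7, Ccl12 and Cxcl2 were highest in losartan mouse 3 and second in aliskiren mouse 1, whereas Ppbp and Cxcl15 were lowest in losartan mouse 3.

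Among 12 tested genes of the inducing signals and of NF-kB, 8 were positively correlated with Havcr1, against 8.63% of all genes. Between the drugs 0 of these 12 differed, as did 0% of all genes. The inducing genes named here were chosen after seeing their values. Rela, the p65 subunit of NF-kB, had r = 0.930, the adhesion molecule gene Icam1 0.925 and the inhibitor gene Nfkbie 0.920. The feedback inhibitor genes Tnfaip3 and Nfkbia had r = 0.905 and 0.810, and Relb, Tnfrsf1a and Irf7 had 0.894, 0.886 and 0.827. The cytokine genes Tnf, Il6 and Ifng lay below the level filter, and Il1b had r = 0.604 and did not pass. Of the sheddases, Adam17 had r = 0.794 (adjusted p = 0.0494, permutation test) and Adam10 r = 0.467. For Adam17 the sign depended on the probe set, since its set of highest variance gave r = -0.32. As for the members, these calls were lost with single mice while the coefficients of several stayed large. The lowest r with any mouse left out was 0.892 for Rela, 0.884 for Cxcl11 and 0.845 for Tnfrsf1a. For others that were called it fell further, to 0.650 for Nfkbia, 0.612 for Adam17 and 0.593 for Cx3cr1. Without losartan mouse 3, when 0.0174% of all genes passed, 0 of the receptors, other chemokines, inducing genes, sheddases, macrophage genes and fibroblast genes passed. Of the same genes only Rela, Icam1 and 7 macrophage genes, among them Cd68 and Cd14, passed without aliskiren mouse 1, when 206 of all 11485 genes did.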

How the data were processed

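Expression was measured with Affymetrix mouse arrays, 1 per mouse, from 100 ng of total RNA per the labels' protocols. The authors deposited log2 values per probe set, and the submitters' processing notes name RMA and version 1.1 of Affymetrix Expression Console. RMA equalises the distributions of the arrays, so an overall difference in RNA amount is no longer visible. Of 45037 non-control probe sets, 34945 had 1 gene symbol in the platform annotation, 932 had several and 9160 none, and only the first kind was used. Symbols were updated through a RefSeq gene table, which held the identifiers of 34741. No pair among the 45 pairs of arrays was identical.

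The drugs were compared two-sided by lmFit and eBayes of limma 3.58.1, run in R 4.3.3, with the drug as the model's single term and Benjamini-Hochberg adjustment over 11486 genes. Correlations used Pearson's r and Spearman's rho with two-sided permutation p-values, adjusted over all genes tested. The permutations were 100000 resamples for 10 mice and all orders for fewer mice, 362880 of them for 9. Both scripts were tested on simulated data. Figures were drawn with matplotlib 3.10.9. The members, gene lists and marker lists were chosen with earlier results of these data known. Named genes are the members, Csf1r, Havcr1, the 3 genes of highest r for each, the members' receptors, Adam10 and Adam17, and genes of the lists by smallest p or highest level. Chosen after seeing their values were Pf4, Ppbp, Ccl7, Ccl12, Cxcl2, Cxcl11, Cxcl13, Cxcl14, Cxcl15, the genes of the inducing signals and the fat gene Adipoq. Alternatives touched the filter, probe set, scaling, variance model, array weights, block and each mouse left out.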

Additional observations from a re-analysis of the deposited data

Results flagged for a closer look

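Within the drug groups, 28 groups of 5 values were checked for a mouse that stood far from the rest, a check that chance alone meets in about 5% of groups. It picked out losartan mouse 3 for 3 of them. Its log2 level of Ccl2, the monocyte attractant, was 7.99, and the nearest losartan mouse had 6.02. For Cxcl1, the neutrophil attractant, it was 9.60 against 7.64 in the nearest losartan mouse. The mean of its perirenal fat genes was 12.01, and the nearest losartan mouse had 9.16.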

How the results depend on the processing

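No gene differed between the drugs under any alternative run. Over 213 alternative estimates of the 10 chemokines' drug differences, 34 changed sign and 0 had an adjusted p under 0.05 (lowest 0.727, limma). Without the 3 mice of high Adipoq the signs turned for Ccl2 (0.63), Ccl5 (0.37), Ccl6 (0.64), Cxcl1 (0.20), Cxcl12 (-0.14) and Cxcl16 (0.20). Without losartan mouse 3 and aliskiren mouse 1 they turned for Ccl5 (0.11), Ccl6 (0.36), Cxcl1 (0.044), Cxcl12 (-0.074) and Cxcl16 (0.094), and with array weights for Ccl5 (0.020), Ccl6 (0.24), Cxcl12 (-0.055) and Cxcl16 (0.081). The mean of its probe sets turned Cx3cl1 to 0.015. Leaving out 1 mouse at a time moved the difference from -0.51 to 0.30 for Ccl2, -0.27 to 0.24 for Ccl5, -0.43 to 0.57 for Ccl6, -0.052 to 0.99 for Ccl8, -0.20 to 0.77 for Ccl9, -0.52 to 0.15 for Cxcl1, -0.11 to 0.10 for Cxcl12 and -0.14 to 0.18 for Cxcl16.

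None of 230 alternative correlations of the members with Havcr1 changed sign; 54 lost and 5 gained their call. The genes correlated with Havcr1, 1224 with 9 members, became 159 with 1 member by rank, 1849 with the tubular injury mean, and 0 with 0 members without the 2 farthest mice, without the 3 mice of high Adipoq, or without losartan mouse 3 and aliskiren mouse 1. Leaving out 1 mouse gave 2 to 1318 genes and 0 to 10 members: 2 genes without losartan mouse 3, 206 without aliskiren mouse 1, 648 without losartan mouse 2 and 799 without losartan mouse 4. With 9 mice all 362880 orders were run, against 100000 resamples for 10 mice, so the smallest possible p was no larger there. Leaving out 2 or 3 mice left fewer orders than that, so those counts of 0 are not comparable with the others. The cause of the losses was not tested. With Csf1r, 0 genes became 2 by limma regression, and 1680 genes with 9 members against the macrophage mean. Csf1r's r turned negative at fixed Havcr1 for Ccl5 (-0.29), Ccl6 (-0.15), Ccl8 (-0.29), Cxcl10 (-0.024), Cxcl16 (-0.025) and Cx3cl1 (-0.57), without losartan mouse 3 and aliskiren mouse 1 for Ccl6 (-0.072) and Cx3cl1 (-0.27), and for Cx3cl1 also without the mice of high Adipoq (-0.12) and with another Csf1r probe set (-0.25); leaving out 1 mouse gave Cx3cl1 -0.12 to 0.63. With Havcr1, Ccl28 turned to 0.16 and 0.34 without the farthest and the high-Adipoq mice (-0.68 to 0.30 without 1 mouse), Ccl27a to 0.073 without losartan mouse 3 and aliskiren mouse 1, and Adam10 to -0.079 and Adam17 to -0.32 with the probe set of highest variance.

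The mouse numbers are only names: deviations of same-numbered mice correlated between -0.23 and 0.42. With the number as a replicate block, 0 genes differed between the drugs, and 360 genes with 9 members were correlated with Havcr1. Sequencing depth does not apply to arrays, and every member stayed above the level filter of 5.53 without losartan mouse 3 (lowest mean 5.74, Ccl2).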
